A study of Macaca mulatta with 4 samples.

Results

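Scaffolds are stretches of assembled sequence that a reference genome holds without a place on a chromosome. The HIF-1α peaks called on them in infarcted rhesus heart are described here, chosen as all peaks of the 2 deposited lists whose sequence name begins with NW_, the RefSeq prefix that these scaffolds carry. They numbered 4991 of 13351 peaks at 6 h and 3264 of 7399 at 4 weeks, or 8255 of 20750 in both lists. The series holds 4 samples of heart from male rhesus macaques (Macaca mulatta), in which infarction was made by ligation of the LAD, the left anterior descending artery of the heart. At each time, 6 h and 4 weeks after ligation, there was 1 library of chromatin pulled down with an antibody against HIF-1α and 1 input library without antibody, both from infarcted myocardium. Age, the number of animals, any pooling of animals, and any uninfarcted heart were not given in the sources used here. All values are therefore of 2 peak lists, with no replicate check, and no test between the times was made.

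HIF-1 is a transcription factor of an oxygen-regulated α subunit and a stable β subunit. When oxygen is short the α subunit is no longer degraded, and the pair binds DNA at hypoxia response elements and turns on genes of glycolysis, angiogenesis and iron and oxygen supply, VEGFA among them. The design text names copper, which is known as a factor in HIF-1 activity, and sets early against late infarct. ChIP-seq peaks are stretches where reads of the antibody library pile up over the input. Scaffolds that could not be placed are often short and rich in repeated or duplicated sequence, and a read from such sequence may align to several places.

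The first comparison is how many HIF-1α peaks a scaffold held. At either time most scaffolds with a peak had a single one, and scaffolds with several peaks were found mostly in the 6 h list. At 6 h the 4991 peaks lay on 3887 scaffolds, a mean of 1.28 per scaffold, and at 4 weeks the 3264 peaks lay on 3156, a mean of 1.03. At 6 h 3326 scaffolds had 1 peak, 342 had 2, 98 had 3 and 60 had 4. At 4 weeks 3084 scaffolds had 1 peak, 51 had 2, 15 had 3 and 4 had 4. At least 2 peaks were on 561 scaffolds at 6 h, or 14.4% (exact Clopper-Pearson 95% interval 13.3 to 15.6%), and on 72 at 4 weeks, or 2.28% (1.79 to 2.86%). With peaks of a list merged where at most 1 kb apart, the shares were 8.13% (7.29 to 9.03%) and 1.01% (0.695 to 1.43%). The 6 h list was the longer one. Limited to 3264 scaffold peaks, the number at 4 weeks, it gave 13.9% (12.6 to 15.3%) with the widest peaks and 13.4% (12.2 to 14.8%) with those first in its rows. Peaks on multi-peak scaffolds were wider, so the first of these subsets favours them. The second was not a random draw either, since the rows had an order of their own. The median width of scaffold peaks was 319 bp in the first 10% of 6 h rows and 275 bp in the whole 6 h list. Neither subset thus stands for a shorter list, and the part of list length in the difference was not tested.

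**Figure D1:**
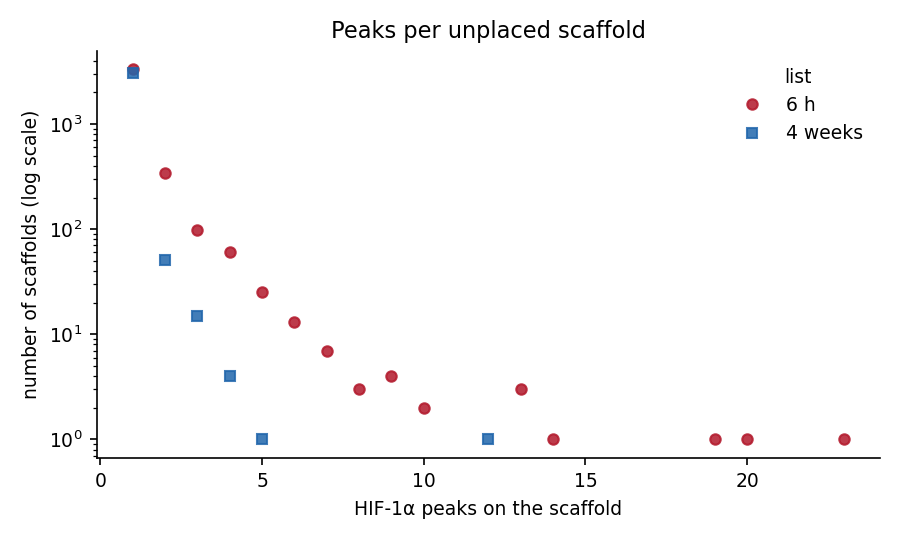
Number of scaffolds (log scale) against the number of HIF-1α peaks that each held, at 6 h (circles) and 4 weeks (squares). Scaffolds with 1 peak numbered 3326 and 3084, and the tail reached 23 peaks at 6 h and 12 at 4 weeks.

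The multi-peak scaffolds carried 1665 of the 6 h scaffold peaks, or 33.4% (32.1 to 34.7%), and 180 of the 4-week ones, or 5.51% (4.76 to 6.35%). At least 5 peaks were on 61 scaffolds at 6 h and on 2 at 4 weeks, which were NW_015067827 with 12 and NW_015029120 with 5. At least 10 were on 9 scaffolds at 6 h and on NW_015067827 alone at 4 weeks. Scaffold peaks as a whole were not concentrated on a few scaffolds. The 10 scaffolds with the most peaks of each list held 2.89% of all 6 h and 1.38% of all 4-week scaffold peaks. Scaffold names with a peak in either list ran from NW_014806056 to NW_015090750. When this range of numbers was divided into 10 equal parts, each part held 360 to 419 of the 6 h scaffolds and 303 to 331 of the 4-week ones.

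Neighbouring peaks on a scaffold were close to one another at both times. Neighbours on the same scaffold had a median gap of 767 bp at 6 h (quartiles 319 and 1986 bp, 1104 gaps) and 656.5 bp at 4 weeks (300.2 and 1806 bp, 108 gaps). No gap between neighbours was under 152 bp at 6 h or under 166 bp at 4 weeks. Another peak of the same list lay within 1000 bp for 21.3% of scaffold peaks at 6 h (20.2 to 22.5%) and for 3.62% at 4 weeks (3.001 to 4.31%). On chromosomes the same share was 11.7% at 6 h (11.04 to 12.4%) and 6.82% at 4 weeks (6.07 to 7.63%). Close neighbours were thus more frequent on scaffolds than on chromosomes in the 6 h list and less frequent in the 4-week list, with intervals that do not meet in either. Scaffold lengths, which bear on the room for a neighbour, were not known. On multi-peak scaffolds the stretch from the first to the last peak had a median of 2570 bp at 6 h and 2102 bp at 4 weeks, and peaks covered a median of 37.9% and 45.1% of it.

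The 10 scaffolds with the most peaks over both lists were led by NW_015067827, with 20 peaks at 6 h and 12 at 4 weeks. Its peaks spread over 39.7 kb, from 7384 to 47081, and had median widths of 468 bp at 6 h and 363 bp at 4 weeks. All 12 of its 4-week peaks overlapped a 6 h peak, and 9 of its 20 peaks at 6 h overlapped a 4-week peak. The 6 h peak at 17029 to 20078 (3050 bp) alone held 3 of the 4-week peaks, at 17949 to 18193, 18361 to 19078 and 19301 to 19996. The first 4-week peak on this scaffold was at 12250 to 13021, while 4 peaks of the 6 h list, between 7384 and 10408, lay before it with no counterpart.

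The other scaffolds of this group differed in how far the 4-week list followed the 6 h one. On NW_015029120, 5 of 8 peaks at 6 h were matched by all 5 at 4 weeks, the longest overlap being that of 4498 to 5511 at 6 h with 4581 to 5439 at 4 weeks. On NW_014960165, with 13 and 4 peaks, the 4-week peaks were all between 16216 and 19729, and 3 of them overlapped a 6 h peak. On NW_014839899, with 10 and 3, the 3 pairs lay between 3854 and 8367. A further 3 scaffolds had a single 4-week peak that overlapped the end part of a long 6 h series. These were NW_015082756 with 23 peaks at 6 h over 36.007 kb, NW_015088867 with 13 over 15.8 kb and NW_014906376 with 10 over 18.9 kb.

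The remaining 3 of the 10 had no overlap between the lists. NW_014868671 had 19 peaks at 6 h, at 1258 to 90005, and its single 4-week peak, at 967 to 1215, ended 42 bp before the first of them. NW_014809908 had 14 peaks at 6 h over 31.6 kb and NW_014880829 had 13 over 21.1 kb, and neither had a 4-week peak. The share of the stretch covered by 6 h peaks ran from 8.01% on NW_014868671 to 41.5% on NW_015029120 among the 10. NW_014906376, the last of them with 11 peaks over both lists, was tied with NW_015003026, which had 9 at 6 h and 2 at 4 weeks.

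**Figure D2:**
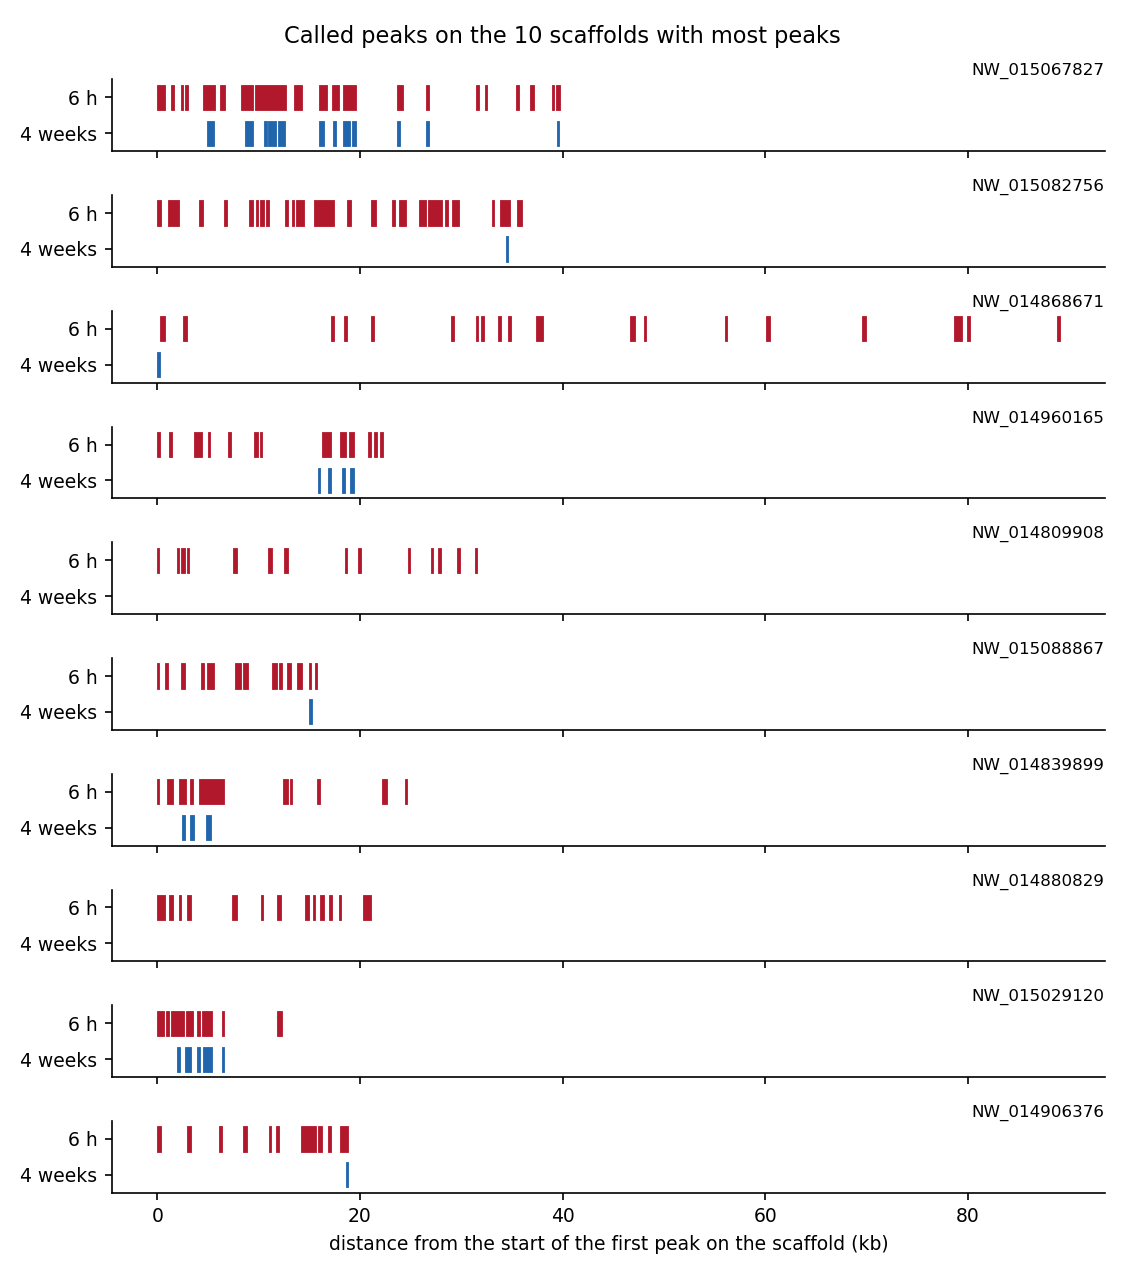
Called peaks on the 10 scaffolds with the most peaks, drawn to scale as bars along each scaffold, with the distance in kb from the start of its first peak (6 h list above, 4-week list below). NW_015067827 has 4-week bars along parts of its 6 h series, while NW_014809908 and NW_014880829 have 14 and 13 bars at 6 h and none at 4 weeks.

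The second comparison is where along the scaffold a HIF-1α peak began. Most peaks began in the first 1000 bp, at both times, and the 4-week peaks were nearer the start. The median start was base 592 at 6 h (quartiles 229 and 2664) and base 478 at 4 weeks (229 and 1243). In the first 1000 bp began 3003 of the 6 h scaffold peaks, or 60.2% (58.8 to 61.5%), and 2311 of the 4-week ones, or 70.8% (69.2 to 72.4%). The first 10000 bp held the starts of 92.9% and 97.5%. Far along a scaffold there were few peaks, with 21 starts beyond the first 100000 bp at 6 h and 7 at 4 weeks, the farthest at base 554528 and base 348601.

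Within the first 1000 bp the starts were not spread evenly. The first 100 bp held 328 starts at 6 h and 178 at 4 weeks, and the next 100 bp held 760 and 495, the most of any 100 bp bin in the first 2000 bp. From there the numbers fell in each further bin up to base 1000, to 69 and 61 in the bin that ends there. At 4 weeks the bins from base 201 to base 1000 held relatively more starts than at 6 h, for example 9.16% against 6.15% at bases 401 to 500. No peak began at the first base, and the nearest began at base 7 at 6 h and base 9 at 4 weeks.

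**Figure D3:**
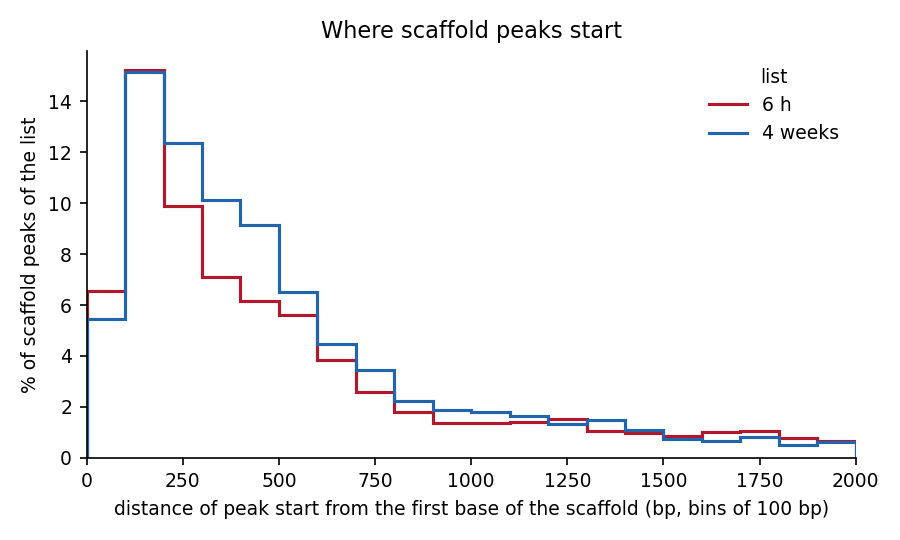
Share of each list's scaffold peaks that start in each 100 bp bin of the first 2000 bp of a scaffold, against the distance from its first base. Both lists peak in the second bin, at 15.2% of scaffold peaks, and the 4-week line lies above the 6 h line from base 200 to base 1000.

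The place of a peak went with the number of peaks on its scaffold. On scaffolds with 1 peak in the list, it began in the first 1000 bp in 77.2% of cases at 6 h (75.7 to 78.6%) and in 73.2% at 4 weeks (71.6 to 74.8%). Among peaks of multi-peak scaffolds the share was 26.1% at 6 h (24.03 to 28.3%) and 29.4% at 4 weeks (22.9 to 36.7%). The order of the times was thus the opposite on scaffolds with 1 peak to that over all scaffold peaks, where 6 h had the lower share. Counted per scaffold, the first peak began in the first 1000 bp on 74.6% of scaffolds at 6 h (73.2 to 75.9%) and on 72.9% at 4 weeks (71.3 to 74.4%), intervals that meet.

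Lengths of the scaffolds were not known, and the end of the last peak gives a lower bound. Over both lists this end lay at a median of base 772 on the 6503 scaffolds with a peak (quartiles 530 and 1630, 5th and 95th percentiles 351 and 7091). The largest was base 554776. Whether peaks lay near the far end of their scaffold was not analysed here, and the part of scaffold length in where peaks began was not tested.

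The third comparison is peak width, as the end minus the start of the deposited record. Against chromosomal peaks, those on scaffolds were wide in the 6 h list and narrow in the 4-week list, in the middle of the distribution and in its upper tail. At 6 h the median was 275 bp on scaffolds (95% interval of the median 271 to 279 bp) and 254 bp on chromosomes (251 to 257 bp). At 4 weeks it was 239 bp (236 to 242 bp) and 260 bp (257 to 264 bp). Wider than 500 bp were 12.6% of scaffold peaks at 6 h (11.7 to 13.5%) against 6.64% of chromosomal ones (6.12 to 7.19%). At 4 weeks the order was the other way, with 3.49% (2.89 to 4.18%) against 6.19% (5.48 to 6.97%). Over 1000 bp there were 48 scaffold peaks at 6 h and 1 at 4 weeks.

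At the narrowest width itself the share was lower on scaffolds than on chromosomes at both times. The narrowest width in either list, 199 bp, was that of 9.72% of scaffold peaks at 6 h (8.91 to 10.6%) against 23.1% of chromosomal ones (22.2 to 23.98%). At 4 weeks it was that of 12.9% (11.8 to 14.1%) against 16.6% (15.5 to 17.8%). For widths up to 225 bp the 4-week order was the other way, with 40.1% of scaffold peaks and 32.9% of chromosomal ones. The 6 h order stayed the same, with 29.1% and 37.6%. The 95th percentile of width was 670.5 bp on scaffolds and 541 bp on chromosomes at 6 h, and 466 and 530 bp at 4 weeks.

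**Figure D4:**
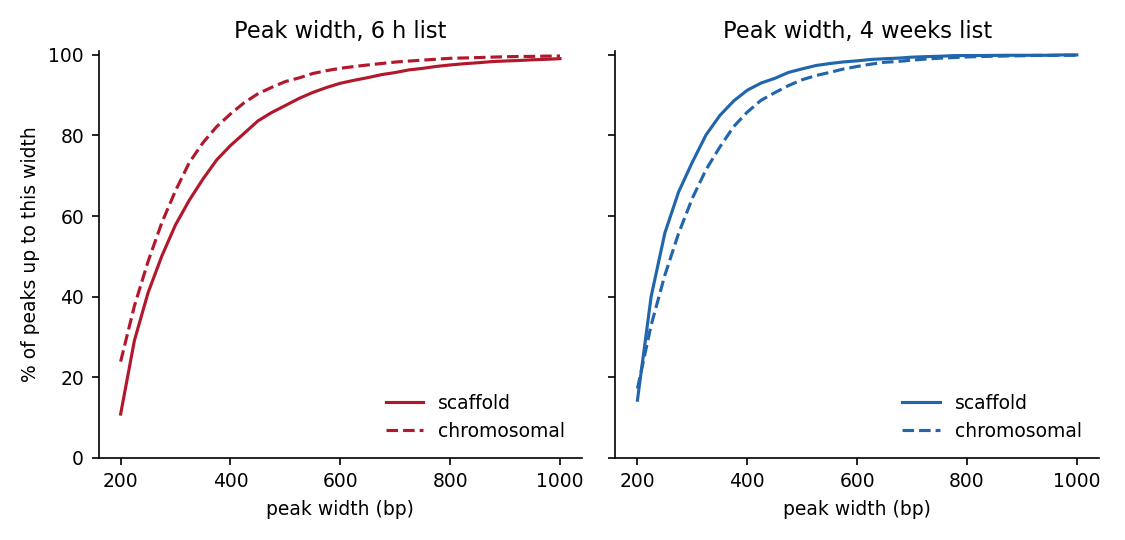
Share of peaks up to each width, for scaffold peaks (solid) and chromosomal peaks (dashed), at 6 h (left) and 4 weeks (right). The solid line lies to the right of the dashed one at 6 h, with medians of 275 and 254 bp, and mostly to its left at 4 weeks, with medians of 239 and 260 bp.

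Width changed with position and with the number of peaks. Peaks that began in the first 200 bp had a median of 307 bp at 6 h and 251 bp at 4 weeks, those at bases 201 to 500 had 261 and 239 bp, and those at bases 501 to 1000 had 243 and 230 bp. Beyond base 5000 the 6 h median was 289 bp and the 4-week median 233.5 bp. At 6 h the width thus had its low point at bases 501 to 1000, with an interval of the median (237 to 250 bp) below that of the later bases 1001 to 5000 (269 to 287 bp). On scaffolds with 1 peak the medians were 261 and 236 bp at 6 h and 4 weeks, with 2 to 4 peaks 297 and 303 bp, and with 5 or more 356 and 323 bp. The last of these values rests on 17 peaks of 2 scaffolds at 4 weeks. The chromosomal median at 6 h was 254 bp (251 to 257 bp). The 6 h interval on scaffolds with 1 peak (257 to 266 bp) met it, and those with more peaks lay above. By position, only the 6 h median at bases 501 to 1000 was below the chromosomal one.

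The 10 widest scaffold peaks of the 6 h list ran from 1722 to 4523 bp, and 6 of them overlapped a 4-week peak. Of all 6 h scaffold peaks 10.2% did. In the widest of 5 equal parts of the list it was 19.9% on scaffolds and 18.03% on chromosomes. The widest of the 10 peaks was on NW_014949760 at 1120 to 5642 and held 3 separate 4-week peaks, at 1208 to 1893, 2709 to 3188 and 3555 to 4124. The next were on NW_015067827 (3050 bp), on NW_014839899 at 5882 to 8367 (2486 bp), on NW_015023841 at 22216 to 24266 (2051 bp) and on NW_014905615 at 88 to 2134 (2047 bp), and each of them overlapped a 4-week peak. So did the peak on NW_014955301 at 5934 to 7718 (1785 bp). The other 4 had no overlap, on NW_014913693 (2011 bp), NW_015019984 (2010 bp), NW_015082756 (1974 bp) and NW_015052274 (1722 bp). Of these scaffolds, NW_015019984 and NW_015052274 had no 4-week peak anywhere.

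The 10 widest scaffold peaks of the 4-week list ran from 767 to 1088 bp, and all 10 overlapped a 6 h peak. Of all 4-week scaffold peaks 15.8% did. In the widest of 5 equal parts of the list it was 36.2% on scaffolds and 30.2% on chromosomes. Besides the pairs on NW_014905615, NW_015029120 and NW_015067827, the 10 included NW_014913095, where the 4-week peak at 132 to 1097 was wider than the 6 h peak at 411 to 1162. On NW_014835557 the 4-week peak at 1046 to 1814 (769 bp) and the 6 h peak at 1365 to 2348 (984 bp) were shifted against each other. On NW_014931996 the lists had 3 and 4 peaks, and the 3 at 4 weeks, at 1483 to 1761, 2091 to 2939 and 3184 to 3574, each lay on a 6 h peak.

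The fourth comparison is which scaffolds had peaks at both times, and whether these were the same sites. A minority did. Of all scaffolds with a peak, 540 had one in both lists, 3347 only at 6 h and 2616 only at 4 weeks. The 540 were 13.9% of the 6 h scaffolds (12.8 to 15.02%) and 17.1% of the 4-week ones (15.8 to 18.5%). On 449 of them, or 83.1% (79.7 to 86.2%), at least 1 pair of peaks overlapped by 1 bp or more, and on 91 none did. Over all peaks of the series, 9.15% at 6 h and 16.7% at 4 weeks overlapped a peak of the other list. On scaffolds it was 507 peaks at 6 h (10.2%, 9.33 to 11.03%) and 517 at 4 weeks (15.8%, 14.6 to 17.1%), near that background in both lists. On chromosomes it was 8.54% (7.95 to 9.16%) and 17.3% (16.2 to 18.5%). The scaffold and chromosomal intervals do not meet at 6 h and meet at 4 weeks.

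Scaffolds with peaks at both times held more peaks than those with peaks at 1 time. At least 2 peaks of the 6 h list were on 28.7% of the 540 (24.9 to 32.7%) against 12.1% of the scaffolds with 6 h peaks only (11.04 to 13.3%). In the 4-week list it was 9.26% (6.95 to 12.02%) against 0.841% (0.528 to 1.27%). Read the other way, 11.6% of scaffolds with 1 peak at 6 h also had a 4-week peak (10.5 to 12.7%), as did 23.8% of those with 2 to 4 (20.1 to 27.8%) and 59.02% of those with 5 or more (45.7 to 71.4%, 36 of 61). Of scaffolds with 1 peak at 4 weeks 15.9% also had a 6 h peak (14.6 to 17.2%), and of those with 2 to 4 it was 68.6% (56.4 to 79.1%, 48 of 70). The lengths of these scaffolds, which bear on the room for a second peak, were not known.

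On most of the 540 scaffolds the lists were alike in number. The numbers were equal on 385 scaffolds, higher at 6 h on 142 and higher at 4 weeks on 13. On 323 of the 540, or 59.8% (55.5 to 63.98%), every peak of both lists overlapped one of the other. Where each list had 1 peak, on 375 scaffolds, the 2 overlapped on 311, or 82.9% (78.7 to 86.6%). This share fell with distance from the scaffold start. It was 93.75% for 6 h peaks that began in the first 500 bp (90.05 to 96.4%, 256 scaffolds), 74.4% at bases 501 to 1000 (58.8 to 86.5%, 43 scaffolds) and 54.1% at bases 1001 to 5000 (40.8 to 66.9%, 61 scaffolds). Beyond base 5000 it was 6 of 15 scaffolds. On a scaffold little longer than a peak any 2 peaks must overlap, and the part of scaffold length in this fall was not tested.

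Within overlapping pairs the midpoints lay nearer to one another on scaffolds than on chromosomes. Pairs were chosen for overlapping, so some closeness follows from that choice. Scaffold lengths, which bear on the room for peaks to lie apart, were not known. On scaffolds 520 pairs overlapped, over a median of 250.5 bp, and the overlap made up at least 50% of the narrower peak in 501 of them (96.3%, 94.4 to 97.8%). The midpoints of a pair lay a median of 46.8 bp apart on scaffolds (95% interval of the median 40 to 52.5 bp) and 106 bp apart in the 723 chromosomal pairs (96.5 to 115 bp). The 6 h peak was the wider in 369 scaffold pairs, or 71.0% (66.9 to 74.8%), and the 4-week peak in 148. The median widths in scaffold pairs were 385.5 bp at 6 h and 293.5 bp at 4 weeks, and the median of the differences (6 h minus 4 weeks) was 55.5 bp (41 to 74 bp). In chromosomal pairs this median was 11 bp (0 to 22 bp). In 226 scaffold pairs (43.5%) the 4-week peak lay entirely within the 6 h peak, and in 49 (9.42%) the reverse held. Only 11 of the 6 h scaffold peaks overlapped more than 1 peak of the 4-week list, and 3 of the 4-week ones overlapped more than 1 of the 6 h list.

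Several pairs of the 10 with the longest overlap had nearly the same borders. On NW_014847705 the peak was at 38 to 864 at 6 h and at 59 to 825 at 4 weeks, with midpoints 9 bp apart. On NW_014831384 it was at 59 to 832 and at 74 to 834 (8.5 bp apart), and on NW_014838664 at 47 to 845 and at 92 to 848 (24 bp apart). On NW_014817765 the borders were 673 to 1473 and 701 to 1485 (20 bp apart). In the pair on NW_015029120 the midpoints were 5.5 bp apart and in the pair on NW_014931996 11 bp. Other pairs of the 10 differed more in width, as on NW_014955301, where 1785 bp at 6 h (5934 to 7718) stood against 968 bp at 4 weeks (6630 to 7597). On NW_014885139 the 6 h peak at 1867 to 3498 (1632 bp) held the 4-week peaks at 1886 to 2836 and 3090 to 3311.

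The 91 scaffolds with peaks at both times and no overlap had their nearest peaks a median of 1176 bp apart (quartiles 440 and 2168 bp), and on 42 of them the gap was at most 1000 bp. The closest was NW_014925201, where the 4-week peak at 135 to 350 and the 6 h peak at 360 to 642 were 9 bp apart. The farthest was NW_015077215, with 49094 bp between the 4-week peak at 21022 to 21286 and the 6 h peak at 70381 to 70822. After NW_014868671, those with the most peaks were NW_015052742 with 6 peaks at 6 h, NW_014860614 with 5, NW_014869546 with 4 and NW_014878072 with 3, each with 1 peak at 4 weeks. NW_014878072 stood first by name among 8 scaffolds with 4 peaks over both lists. In these 4 the nearest peaks of the lists were 563, 1318, 1919 and 2171 bp apart.

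Shared scaffold peaks tended to be wider than the others. In the 4-week list peaks on multi-peak scaffolds were more often shared. Even so, 401 of the 517 shared scaffold peaks of that list lay on scaffolds with a single peak. At 6 h overlapping scaffold peaks had a median width of 380 bp and the others one of 268 bp. At 4 weeks these were 293 and 233 bp. By width over the whole list, divided into 5 equal parts, the shared part of scaffold peaks at 6 h went from 3.72% among the narrowest (2.37 to 5.53%) to 19.9% among the widest (17.7 to 22.2%). At 4 weeks it went from 5.95% (4.27 to 8.05%) to 36.2% (32.03 to 40.6%). Chromosomal peaks went from 3.95 to 18.03% and from 8.73 to 30.2% over the same ranges of width. In all 10 groups of like width and time the scaffold and chromosomal intervals met. A wider peak also meets another more easily by position alone.

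**Figure D5:**
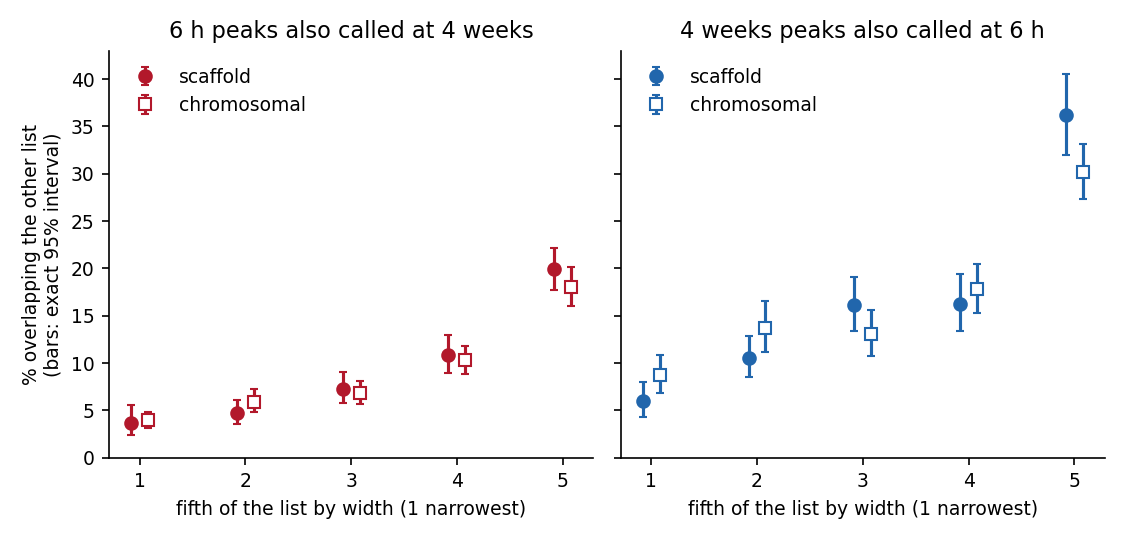
Share of peaks that overlap a peak of the other list, in 5 equal parts of the list ordered by width, for scaffold peaks (filled circles) and chromosomal peaks (open squares), with exact 95% intervals. The share rises from 3.72 to 19.9% on scaffolds at 6 h (left) and from 5.95 to 36.2% at 4 weeks (right).

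At 4 weeks, 64.4% of peaks on multi-peak scaffolds were shared (57.0 to 71.4%, 116 of 180), against 13.003% on scaffolds with 1 peak (11.8 to 14.2%). At 6 h the values were 11.3% (9.81 to 12.9%) and 9.59% (8.61 to 10.6%), with intervals that meet. By position the lists went opposite ways. At 6 h 11.2% of scaffold peaks in the first 1000 bp were shared (10.1 to 12.3%) and 8.65% of those farther on (7.45 to 9.97%). At 4 weeks it was 14.3% (12.9 to 15.8%) and 19.6% (17.1 to 22.3%). Peaks of multi-peak scaffolds mostly began beyond the first 1000 bp in both lists. The part of peak number in these shares by position was not tested.

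The rows of the lists were ordered neither by sequence name nor by width, but in stretches that each ascend in name and position, 1083 of them at 6 h and 452 at 4 weeks. What orders the stretches was not given in the sources used here. Scaffold peaks made up 82.9% of the first 10% of rows at 6 h (80.7 to 84.8%) and 86.1% at 4 weeks (83.4 to 88.5%), against 37.4% and 44.1% of all rows. When the rows were divided into 10 equal parts, 1 part of each list held no scaffold peak. Of the scaffold peaks in the first part 21.8% were shared at 6 h and 31.9% at 4 weeks, the highest values among the parts of each list. In the last part it was 3.56% at 6 h and 16.1% at 4 weeks. The parts between did not change steadily. At 4 weeks part 4 was 80.4% scaffold peaks with 6.39% of them shared, and part 6 was 33.0% with 17.6% shared.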

How the data were processed

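HIF-1α was measured by ChIP-seq in 1 library per time point. Bowtie2 2.0 and MACS2 were used, per the submitters' processing notes. The settings, the version of MACS2, the build, filters and pooling were not given in the sources used here. Per the file names, the authors deposited 2 peak lists, each of HIF-1α chromatin against input, with 3 columns (sequence name, start and end). They hold no score, so depth and strength are unknown, and a deeper library can give more peaks. Coordinates are in the build of the files, with starts read as counted from 0 and printed as counted from 1; if the deposited starts already counted from 1, printed starts would be 1 too high and widths 1 bp too small.

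Genes and sequences were not analysed here, since no genome of that build was used. Overlap of at least 1 bp was computed per scaffold, and chromosomal peaks are those on chromosomes 1 to 20, X and Y. Intervals are exact Clopper-Pearson (95%), and for medians from binomial order statistics; they cover only counting error, and take peaks as independent although neighbours are not. The overlap code was tested on simulated data as long as the real lists, where 200 of 200 planted pairs of 1 bp were recovered and 0 of 100 touching peaks were called. Named were the 10 scaffolds with most peaks over both lists, the 10 widest scaffold peaks of each list, the 10 longest overlaps, and the 5 scaffolds with most peaks among those at both times without overlap, with ties taken in order of name; the closest and farthest of the last kind were added after their values were seen. The members and these lists were chosen with earlier results of these data known; the split by start of scaffolds with 1 peak in each list, the row order and the name range were chosen after seeing the files. Alternatives were a minimum width, merging, stricter or looser overlap, other limits of position, and leaving out the 10 scaffolds with most peaks over both lists. The software was Python 3.11.15 with scipy 1.17.1, numpy 2.4.6, pandas 2.3.3 and matplotlib 3.10.9.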

Additional observations from a re-analysis of the deposited data

How the results depend on the processing

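Alternatives gave 46 values, of which 25 lay inside the reported 95% interval, or for counts within 1.5 times the count given, and 21 outside. Limiting the 6 h list for scaffolds with several peaks (13.4 and 13.9%) was added after seeing the data. Leaving out peaks of 199 bp gave a scaffold share of 41.2% at 6 h and median widths of 290 bp at 6 h and 251 bp at 4 weeks. Merging peaks within 1 kb gave 35.8% on scaffolds, 8.13% of scaffolds with several peaks, 66.3% of starts in the first 1 kb and a median of 282 bp at 6 h, and 1.01% of scaffolds with several peaks and 14.6% shared at 4 weeks. Without the 10 scaffolds with the most peaks over both lists, 61.8% of 6 h peaks began in the first 1 kb. For the first 500 bp the shares were 44.9% and 52.3%, for the first 2 kb 70.8% and 81.6%, and on scaffolds with 1 peak 77.2% and 73.2%, where the order of the times turned. With the 6 h scaffold peaks limited to the widest 3264, 13.2% and 13.6% were shared; a reciprocal overlap of 50% gave 7.75% and 11.9%, and midpoints within 1 kb gave 12.4% at 6 h. Scaffolds with peaks at both times numbered 455 to 540, with 380 to 449 overlapping. Settings that take out or join peaks change numbers by their own construction; the cause of other moves was not tested. No paired analysis was possible because there is 1 ChIP library per time. Sites missed for lack of reads cannot be counted at an unknown depth.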
